A study of Homo sapiens with 22 samples.

Results

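The nuclear genes for complexes II, III and IV of the respiratory chain were followed in neuroblastoma cell lines cultured under hypoxia or normoxia. The 34 genes comprised 4 subunits of complex II, 9 of complex III, cytochrome c (CYCS), 12 subunits of complex IV, 7 complex IV assembly factors and the mitochondrial protease LONP1. They were taken from a fixed list by name, each read through its brightest probeset that names a single gene, and 31 of the 34 were measured among 19775 genes. SDHB and UQCRFS1 had no probeset that names the gene alone in the annotation used here, and the probeset for UQCRH also names UQCRHL, so these 3 were not analysed here. The list held no gene of complex V, and the ATP synthase genes are given further on from a separate list.

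The study compared 11 lines after 18 hours in 1% O2 with the same lines in 20% O2, with 1 array per line and condition. The lines were GI-LI-N, ACN, SHEP-2, SK-N-BE2(C), IMR-32, SK-N-F1, LAN-1, SK-N-SH, GI-ME-N, SHEP21N with MYCN overexpression and SHEP21N without it. The pair of SHEP21N lines is 1 line cultured without or with 50 ng/mL tetracycline, and only the culture labelled as without MYCN overexpression received the drug. Neuroblastoma is a childhood tumor of the sympathetic nervous system, and each line is a culture of tumor cells that has no vessels, stroma or immune cells. Since no line had a repeated culture in either condition, the 11 lines served as the replicates and every comparison was made within a line. They are not all independent, since the SHEP21N pair is 1 line, and IMR-32, SK-N-SH and GI-LI-N had very similar profiles. Counts out of 11 lines and p-values from them may therefore overstate the evidence.

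Complex II passes electrons from succinate to ubiquinone, complex III passes them on to cytochrome c, and complex IV (cytochrome c oxidase) hands them to oxygen. Complexes III and IV pump protons as they do so, and complex V, the ATP synthase, uses the proton gradient to make ATP. Complex IV contains heme A and copper, which dedicated assembly factors build and insert. In human cells, hypoxia-inducible factor 1 (HIF-1) is known to raise COX4I2, an isoform of the COX4 subunit, and LONP1, a protease that can degrade the other isoform, COX4I1.

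Promoter letters are shown for 3 genes picked with the results in view, LONP1, CYCS and SDHD. They are the 250 bases before a RefSeq start site (GRCh38.p14), read 5′ to 3′ on the strand of the gene. In LONP1 and CYCS capitals mark the core letters of a HIF site, ACGTG or GCGTG on either strand. Capitals in SDHD mark the letters TGCGCA, the palindromic half-site of nuclear respiratory factor 1 (NRF1), and CCGGAAG, a motif of ETS factors such as GABP, on either strand.
LONP1, inner start, chr19:5720147-5720396, minus strand: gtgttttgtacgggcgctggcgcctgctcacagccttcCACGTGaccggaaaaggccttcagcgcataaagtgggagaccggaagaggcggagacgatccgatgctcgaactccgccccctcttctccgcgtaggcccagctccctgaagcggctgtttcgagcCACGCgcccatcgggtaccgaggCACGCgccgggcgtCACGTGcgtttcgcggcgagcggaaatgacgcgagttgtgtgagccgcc
CYCS, chr7:25125261-25125510, minus strand: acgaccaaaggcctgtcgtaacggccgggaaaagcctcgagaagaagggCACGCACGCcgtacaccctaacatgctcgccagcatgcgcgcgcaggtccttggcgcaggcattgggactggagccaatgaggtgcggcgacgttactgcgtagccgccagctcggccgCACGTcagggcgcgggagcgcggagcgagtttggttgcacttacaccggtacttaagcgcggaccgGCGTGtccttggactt
SDHD, chr11:112086623-112086872, plus strand: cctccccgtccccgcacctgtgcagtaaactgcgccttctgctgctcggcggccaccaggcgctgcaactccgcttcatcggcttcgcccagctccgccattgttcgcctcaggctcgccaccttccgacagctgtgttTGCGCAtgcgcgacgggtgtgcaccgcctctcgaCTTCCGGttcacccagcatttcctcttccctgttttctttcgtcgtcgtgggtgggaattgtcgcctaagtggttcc
The LONP1 window held 6 HIF core matches, 4 of which come from 2 copies of CACGTG, a palindrome counted on both strands. The window of the outer LONP1 start held 1. CYCS held 4, of which the first 2 overlap in 1 run of capitals, and SDHD held none. The NRF1 letters were matched once in SDHD and 5 times in the outer LONP1 window, and in neither the inner LONP1 window nor CYCS. The ETS letters were matched once each in SDHD and the inner LONP1 window, and in neither of the others.

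Of the 34 genes, 27 had at least 1 promoter in the RefSeq table, 31 promoters in all, and COX4I2 was not among them. A HIF core was found in 20 of these 31 promoters (64.5%), against 43.2% of all 35116 promoters of the same length. The NRF1 letters stood in 9 (29%), against 6.89% of all promoters. For the ETS letters the count was 14 (45.2%), against 8.52%. These are matches of letters and say nothing about binding in these cells. In the measurements below LONP1 averaged higher, and CYCS and SDHD lower, in hypoxia, none with an adjusted p under 0.05 in limma. A link between these letters and the changes was not tested.

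Array signals are Affymetrix MAS5 intensities, divided by the median of their array and put on the log2 scale for every comparison. Single signals are printed as deposited, while changes and the number of lines higher or lower are on the divided values unless said otherwise, so a line with nearly equal signals can have either sign. Array medians were 71.9 to 131.8 in hypoxia and 69.4 to 133.6 in normoxia. All 7 measured genes of a hypoxia check list (among them VEGFA, NDRG1 and DDIT4) were higher in hypoxia in 11 of 11 lines, 5 of them with an adjusted p under 0.05. Of all genes 4.56% were higher in at least 9 of 11 lines, and 0.147% were called as higher. The first share has a wider limit than 11 of 11 lines, for which the share of all genes was not counted. All of the 7 but ADM are in the hypoxia signature that the study selected from these same arrays, so the list is no independent check. Adrenergic and mesenchymal neuroblastoma markers had no called gene among 8 and 6. Markers of other cell types had median signals of 45.6 in hypoxia and 48.9 in normoxia for PTPRC, 22.4 in hypoxia and 11.0 in normoxia for CD14, and 37.8 in hypoxia and 15.9 in normoxia for EPCAM. PECAM1 had 187 in hypoxia and 117 in normoxia, and none of the 4 had an adjusted p under 0.05. The normoxic array of SHEP21N with MYCN overexpression stood apart, with a ratio of 3′ to 5′ GAPDH signal of 67.3, against 0.939 to 1.40 on the other 21 arrays, a ratio that is high where RNA is degraded or copied short. For ACTB the same ratio was 94.0, against 5.05 on the normoxic array of SHEP21N without MYCN overexpression and at most 2.85 on the rest. Arrays of the SHEP21N pair also differed from all others in their lowest signal, 3.3 on each, against 0.0921 to 0.803 elsewhere. The reason was not tested, so a difference in how these arrays were processed cannot be told apart from one of the cells. Normoxic profiles of IMR-32, SK-N-SH and GI-LI-N correlated at 0.937 to 0.948 with each other over genes with a mean signal of at least 100. The SHEP21N pair correlated at 0.911, and every other pair of lines at 0.862 or less.

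Hypoxia left no gene of the 31 past an adjusted p of 0.05 (limma with cell line as a block, Benjamini-Hochberg over 19775 genes), where 0.162% of all genes passed, 0.147% as higher and 0.0152% as lower. Most of the small differences lay on the low side. In 24 of the 31 genes the mean change was below 0 (77.4%), against 55.6% of all genes, and the median log2 change was −0.09, against −0.04 over all genes and −0.05 over the 12519 genes with a mean signal of at least 100. At an unadjusted p under 0.05, 4 members were lower (CYCS, SDHD, SCO1 and COX5A; 12.9%, against 7.07% of all genes) and 2 were higher (COX4I2 and LONP1; 6.45%, against 3.6%). A gene was lower in at least 9 of 11 lines for 9 members, where 9.84% of all genes were, and no member was higher in at least 9, where 4.56% were. Most members are bright. Of the 12519 genes with a mean signal of at least 100, 58% had a mean change below 0. At an unadjusted p under 0.05 in limma 9.03% of these were lower and 3.88% higher. In at least 9 of 11 lines 1694 of them were lower and 674 higher. The 95% interval of the change lay within a 2-fold change either way for 28 of 31 members, all but COX4I2, COX17 and LONP1. In RNA from whole cultures, fewer cells of a kind and less RNA per cell cannot be told apart.

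**Figure D1:**
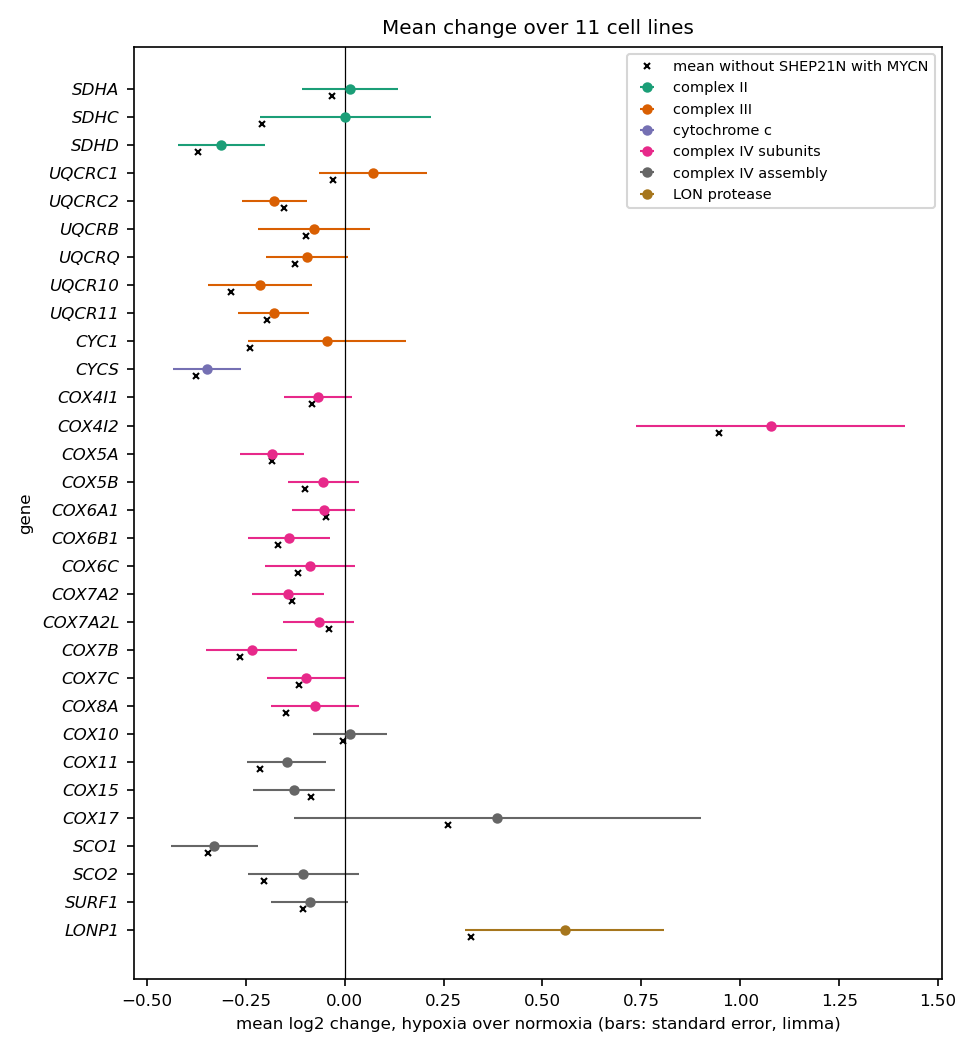
Mean log2 change of the 31 measured genes over 11 cell lines, hypoxia over normoxia. Circles are means with the standard error of the limma fit as bars, coloured by complex, and crosses are the means of 10 lines without SHEP21N with MYCN overexpression. Most circles lie slightly below 0, CYCS lies at −0.35, and COX4I2 at 1.08 and LONP1 at 0.56 lie above it.

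Leaving out SHEP21N with MYCN overexpression, the line with the doubtful normoxic array, moved more members below 0. Without it 28 of 31 had a mean change below 0, with a median of −0.13 against −0.05 over all genes. At an unadjusted p under 0.05, 8 were then lower (all genes 7.95%) and 2 higher (all genes 3.66%), and still none had an adjusted p under 0.05, while 23 of all genes did. The part of the RNA quality of that array in these values was not tested.

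Cytochrome c, encoded by CYCS, is the small soluble carrier that takes electrons from complex III to complex IV and that triggers apoptosis when it leaves the mitochondrion. Its signal was 11566, 19874 and 24525 in hypoxia (lowest, median and highest line), against 13777, 24081 and 30836 in normoxia. The ranges overlapped between lines, yet within each line the hypoxic value was the lower one, in 11 of 11 lines, as was so for 0.662% of all genes. The mean log2 change was −0.35 (SE 0.09, n = 11) with an unadjusted p of 0.00158 and an adjusted p of 0.187 in limma. Changes ran between −0.68 in SHEP21N without MYCN overexpression and −0.07 in SHEP21N with it. When any 1 line was left out the adjusted p was 0.144 to 0.364. A paired t-test in place of limma gave an adjusted p of 0.0323 on the same values, and CYCS was the 1 member that passed there. The study's methods name a t-test after selection for a 2-fold difference, without saying whether it was paired, and no such selection was made here. As the mean of all its probesets, the log2 change was −0.26 with an adjusted p of 0.561.

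Of complex II, SDHD had a mean change below 0, and those of SDHA and SDHC were near 0. SDHD, a membrane anchor subunit, had signals of 1004, 3496 and 3905 in hypoxia, against 1363, 4054 and 6217 in normoxia (lowest, median and highest). It was lower in hypoxia in 9 of 11 lines, all but SK-N-F1 and SHEP21N with MYCN overexpression, with a mean log2 change of −0.31 (SE 0.11, adjusted p = 0.35). SDHD also separated the lines, whichever condition they were in. In hypoxia IMR-32, SK-N-SH and GI-LI-N had 1004, 1154 and 1287, against at least 3359 in the other 8 lines. In normoxia they had 1363, 1484 and 1682, against at least 2890. These are the 3 lines whose whole profiles were most alike. How many of all genes part these 3 lines from the rest in the same way was not counted, so SDHD is not shown to be unusual in this.

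The catalytic flavoprotein subunit SDHA had signals of 1491, 2789 and 4388 in hypoxia, against 1464, 2604 and 3692 in normoxia. Both conditions covered much the same range, and the mean log2 change was 0.01 (SE 0.12, adjusted p = 0.982), with 4 lines higher and 7 lower. SDHC, the other membrane anchor, averaged 0.00 (SE 0.22, adjusted p = 0.999), and that mean hid a split. It was below 0 in 8 of 11 lines, and 2.12 in SHEP21N with MYCN overexpression, whose signals were 6157 in hypoxia and 1643 in normoxia. Without that line the mean log2 change of SDHC was −0.21 (SE 0.10, adjusted p = 0.435). Probesets of SDHA and SDHC carry the suffix that the maker gives to sets with probes that may match other transcripts, so transcripts of close sequence may add to their signals. The same suffix stands on those of COX4I1 and COX7C.

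In complex III, 6 of the 7 measured genes had a mean change below 0, with a median of −0.09 on the log2 scale. UQCRC2, a core subunit, had signals of 4189, 7206 and 12022 in hypoxia, against 4268, 7395 and 12819 in normoxia. Its values were lower in hypoxia in 10 of 11 lines by a mean log2 change of −0.18 (SE 0.08, adjusted p = 0.471), although the ranges nearly coincided. Another bright UQCRC2 probeset, with a mean signal of 5105, had a mean log2 change of −0.007 and was higher in 5 of 11 lines. The mean of all its probesets, among them a dim one (mean signal 114) at 0.32, gave 0.05 instead. UQCR11, a small accessory subunit, had 6077, 11049 and 17247 in hypoxia, against 6612, 11590 and 18768 in normoxia. It was lower in 9 of 11 lines, with a mean log2 change of −0.18 (SE 0.09, adjusted p = 0.51).

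The other small subunits of complex III averaged −0.21 (UQCR10), −0.09 (UQCRQ) and −0.08 (UQCRB) on the log2 scale. For UQCRB the mean rested on SHEP21N without MYCN overexpression at −1.35, and without that line it was 0.05. UQCRC1, the other core subunit, averaged 0.07 and CYC1, the cytochrome c1 that docks cytochrome c, −0.05. In both the line SHEP21N with MYCN overexpression went the other way from most, at 1.09 for UQCRC1 and 1.91 for CYC1. CYC1 had 19961 in hypoxia and 6195 in normoxia there, while 9 of the other 10 lines were lower in hypoxia. Without that line the means were −0.03 for UQCRC1 and −0.24 for CYC1.

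**Figure D2:**
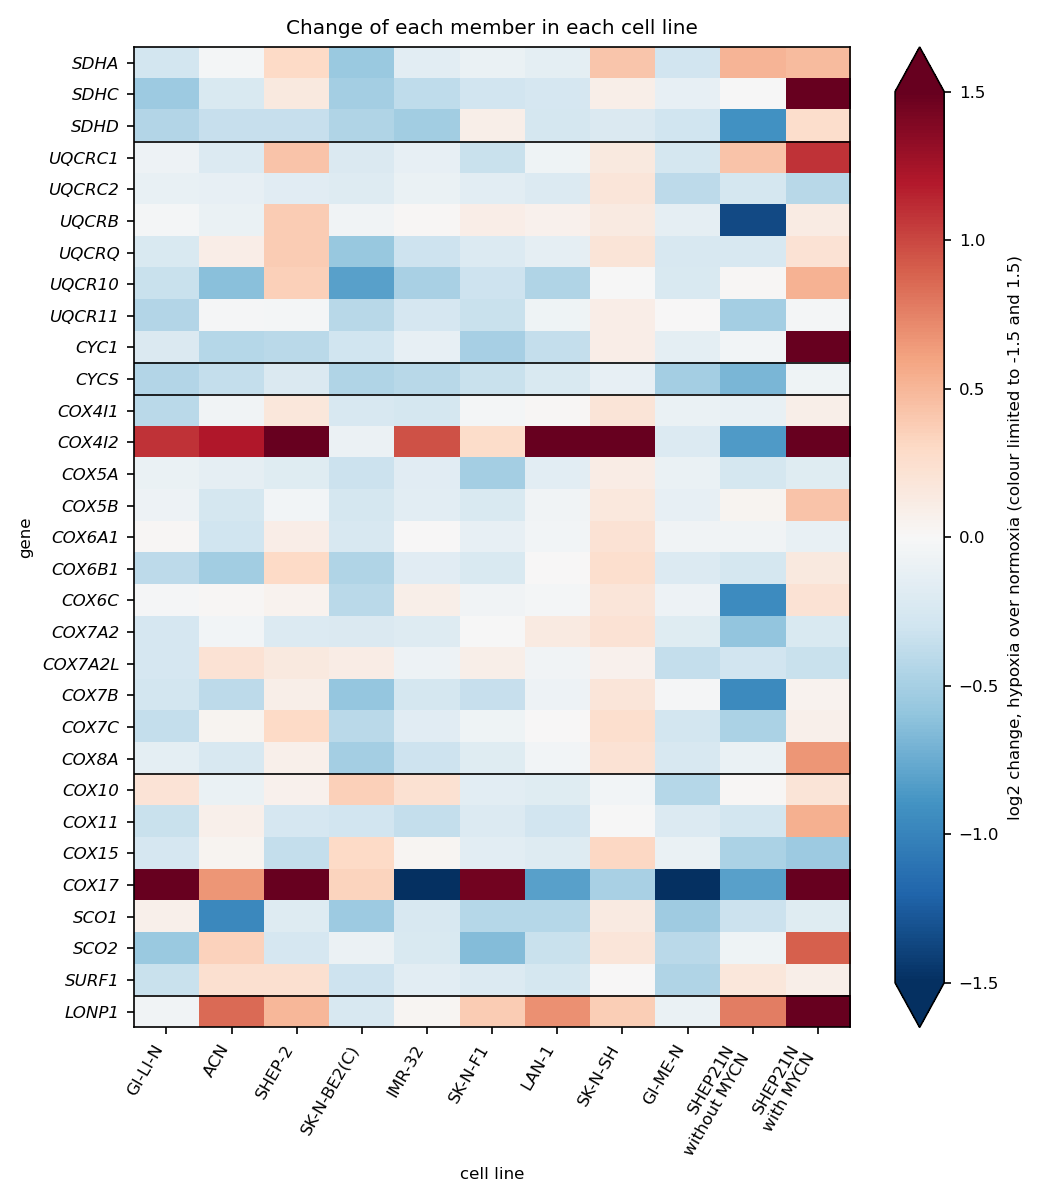
Log2 change, hypoxia over normoxia, of each measured gene (rows, grouped by complex with black lines between groups) in each of 11 cell lines (columns). Blue is lower and red higher in hypoxia, with colour limited at −1.5 and 1.5. The row of CYCS is blue in 11 of 11 lines, the rows of COX4I2 and LONP1 are mostly red, and SHEP21N with MYCN overexpression is red for SDHC, CYC1, UQCRC1 and LONP1.

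Among the 12 complex IV subunits, 11 had a mean change below 0 and the median log2 change was −0.08. COX5A, a matrix-side subunit that joins COX4 early in assembly, had signals of 9076, 18378 and 27113 in hypoxia, against 10954, 21140 and 28577 in normoxia. All but SK-N-SH were lower in hypoxia, 10 of 11 lines, with a mean log2 change of −0.18 (SE 0.08, adjusted p = 0.456). COX7B, a small membrane subunit, averaged −0.24 (SE 0.12) and was lower in 8 lines. Next came COX7A2 at −0.14 and COX6B1 at −0.14. COX7C (−0.10), COX6C (−0.09), COX8A (−0.07), COX4I1 (−0.07), COX7A2L (−0.07), COX5B (−0.05) and COX6A1 (−0.05) lay nearer to 0 than 0.11. COX7A2L is known as a factor that joins complexes III and IV into supercomplexes.

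COX4I2 was the one complex IV subunit with a mean change above 0. Its signals were 126, 214 and 696 in hypoxia, against 25.5, 185 and 317 in normoxia (lowest, median and highest). The ranges overlapped. After division by the array median 8 of 11 lines were higher in hypoxia, and on the signals as deposited 10 of 11, with a mean log2 change of 1.08 (SE 0.34, n = 11, unadjusted p = 0.00832, adjusted p = 0.293). LAN-1 had 512 in hypoxia and 76.2 in normoxia, SK-N-SH 691 in hypoxia and 185 in normoxia, and SHEP-2 126 in hypoxia and 25.5 in normoxia. GI-ME-N, with 214 in hypoxia and 211 in normoxia, and SK-N-BE2(C), with 211 in hypoxia and 207 in normoxia, are the lines whose sign differs between these scales. SHEP21N without MYCN overexpression was lower in hypoxia, at 163 against 286 in normoxia. COX4I2 has a single probeset, and it is dim. On 0 of 11 hypoxic and 3 of 11 normoxic arrays, those of ACN, SHEP-2 and SHEP21N with MYCN overexpression, it lay below the array median. With signals under 50 set to 50 the mean log2 change was 0.99.

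COX4I1, the isoform used in most tissues, had signals of 7801, 15659 and 27382 in hypoxia, against 8384, 17069 and 30039 in normoxia. No shift between the conditions stood out, with a mean log2 change of −0.07 (SE 0.09, adjusted p = 0.83, 95% interval −0.25 to 0.12) and 7 lines lower. The balance of the isoforms was followed as the change of log2 COX4I2 minus that of log2 COX4I1 within a line. It averaged 1.14 ± 1.10 (SD, n = 11), was above 0 in 9 of 11 lines, and had p = 0.00977 in an exact two-sided sign-flip permutation test over lines. The shift was 2.64 in LAN-1, 2.30 in SHEP21N with MYCN overexpression, whose normoxic array had the high 3′ to 5′ ratio, and 1.85 in SK-N-SH. It was 2.23 in SHEP-2, and 1.26 there with signals under 50 set to 50. In SHEP-2 and in SHEP21N with MYCN overexpression the normoxic COX4I2 signal lay below the array median. SK-N-F1 and SK-N-BE2(C) were near 0 at 0.30 and 0.15. GI-ME-N at −0.11 and SHEP21N without MYCN overexpression at −0.74 had the opposite sign. With any 1 line left out the mean was 0.99 to 1.33, with an exact permutation p of 0.00391 to 0.0195. With IMR-32, SK-N-SH and GI-LI-N counted as 1 line it was 1.06, with an exact permutation p of 0.0391. The shift comes almost wholly from the COX4I2 term, since COX4I1 moved by at most 0.40 in any line.

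**Figure D3:**
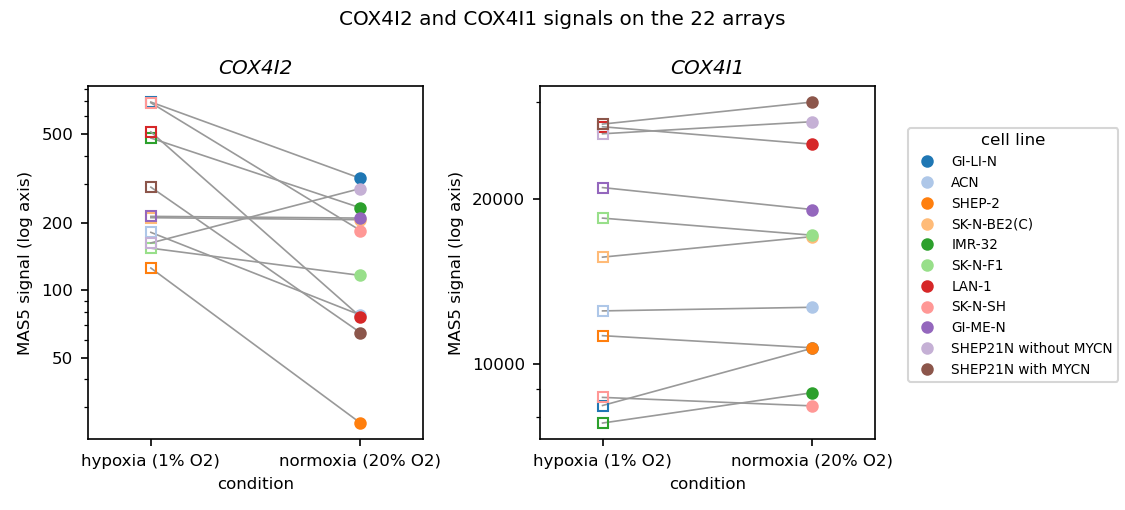
Signals of COX4I2 (left) and COX4I1 (right) on the 22 arrays, log axes, hypoxia as open squares on the left of each panel and normoxia as filled circles, with lines joining the arrays of 1 cell line. On these undivided signals COX4I2 is higher in hypoxia in 10 of 11 lines, with LAN-1 at 512 in hypoxia and 76.2 in normoxia, and COX4I1 is lower in 6 of 11 lines by small amounts.

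The genes whose log2 level was most like that of COX4I2 over the 22 arrays were TPI1, a glycolytic enzyme (Pearson r = 0.863), RETREG3 (0.822) and POLG2, an accessory subunit of the mitochondrial DNA polymerase (0.816). The arrays come in pairs from 11 lines, so differences between lines enter these values too. For COX4I2, 61.6% of the variance lay between lines and 18.1% between conditions, a split that sets 11 lines against a single contrast of conditions. The mean log2 change was 0.72 for TPI1, 0.13 for RETREG3 and 0.05 for POLG2.

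LONP1 averaged higher in hypoxia. Its signals were 1180, 2216 and 5499 in hypoxia, against 844, 1847 and 2267 in normoxia. On the signals as deposited 10 of 11 lines were higher in hypoxia, and after division by the array median 8, with GI-LI-N (−0.05), SK-N-BE2(C) (−0.24) and GI-ME-N (−0.09) lower. The mean log2 change was 0.56 (SE 0.25, unadjusted p = 0.0475, adjusted p = 0.463). SHEP21N with MYCN overexpression alone had 2.92, with signals of 5499 in hypoxia and 844 in normoxia, as deposited the highest of all hypoxic and the lowest of all normoxic arrays. Without it the mean log2 change was 0.32 (SE 0.13, adjusted p = 0.391), with 7 of 10 lines higher, ACN at 0.85 and SHEP21N without MYCN overexpression at 0.77 foremost.

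**Figure D4:**
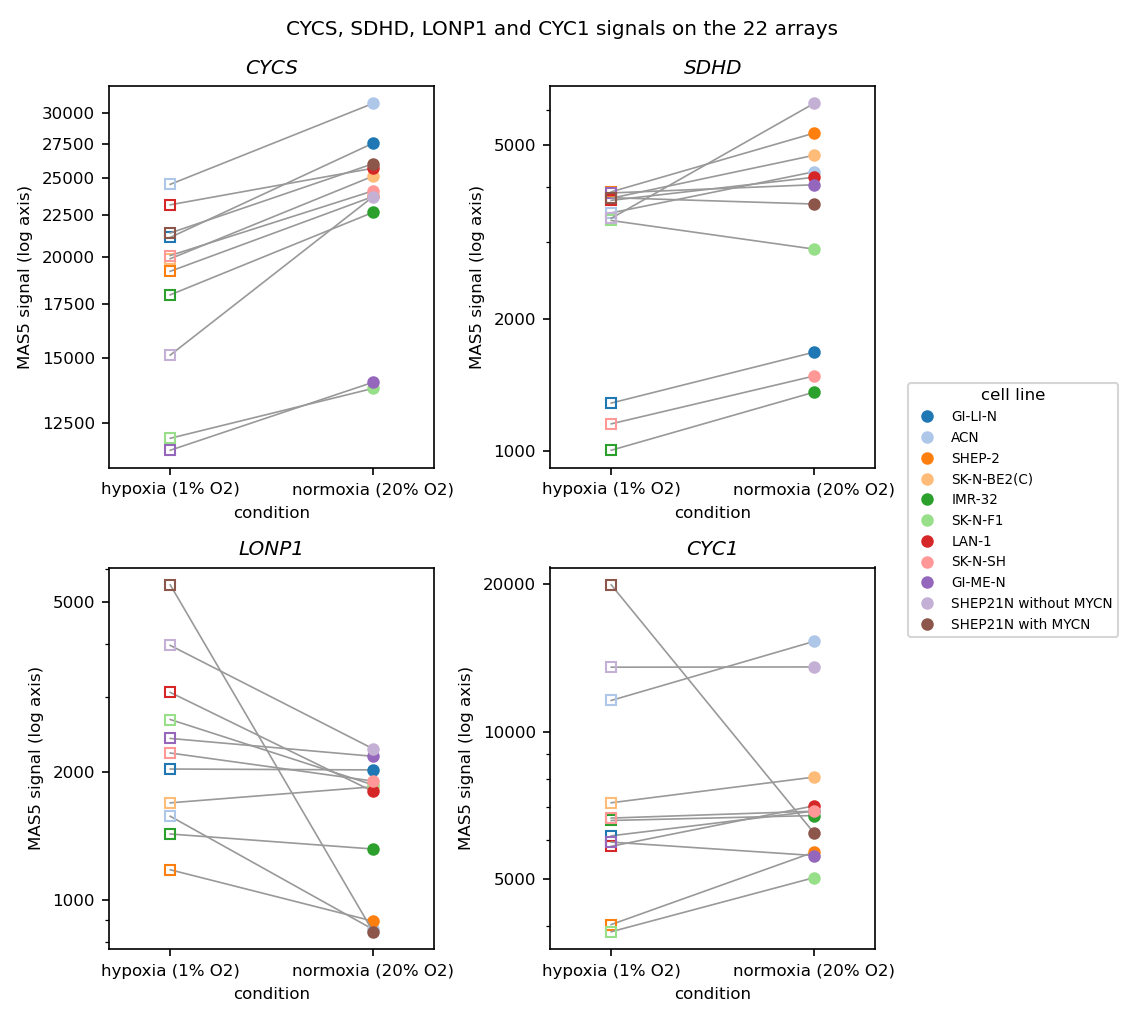
Signals of CYCS, SDHD, LONP1 and CYC1 on the 22 arrays, log axes, hypoxia as open squares on the left of each panel and normoxia as filled circles, with lines joining the arrays of 1 cell line. CYCS is lower in hypoxia in 11 of 11 lines, SDHD lies apart in IMR-32, SK-N-SH and GI-LI-N in both conditions, and SHEP21N with MYCN overexpression crosses the other lines for LONP1 and CYC1.

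Of the 7 complex IV assembly factors, 5 had a mean change below 0, with a median of −0.10 on the log2 scale. SCO1, which helps deliver copper to the CuA site, had signals of 521, 923 and 2404 in hypoxia, against 659, 1355 and 2928 in normoxia. It was lower in hypoxia in all lines but GI-LI-N and SK-N-SH, 9 of 11, with a mean log2 change of −0.33 (SE 0.11, adjusted p = 0.323). COX11, which helps insert copper at the CuB site, had 3109, 5162 and 8871 in hypoxia, against 2859, 5635 and 10738 in normoxia. The ranges overlapped widely, 9 lines were lower and the mean log2 change was −0.15 (SE 0.10, adjusted p = 0.647).

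The remaining assembly factors were less uniform. SCO2, the partner of SCO1, averaged −0.10, and the heme A enzymes COX15 and COX10 −0.13 and 0.01 on the log2 scale. SURF1, which acts early in assembly, averaged −0.09. COX17, the copper chaperone that supplies SCO1 and COX11, averaged 0.39 (SE 0.52), with lines between −2.19 in IMR-32 and 3.90 in GI-LI-N. Its probeset lay below the array median on 7 of 11 hypoxic and 6 of 11 normoxic arrays, and with signals under 50 set to 50 the change was 0.07. A change of COX17 was not detectable with this probeset.

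Lines differed more in their level of these genes than hypoxia moved them. Over the 22 arrays a median of 93.5% of the variance of a member lay between lines and 0.784% between conditions, most for CYCS (20.4%), COX4I2 (18.1%) and LONP1 (10.8%). On signals as deposited the medians were 92.6% and 0.781%. These are shares of the sum of squares. With 11 lines against a single contrast of conditions, lines take the larger share even in noise. The shares of all genes were not computed, so these are not shown to be particular to the members. As deposited, normoxic signals of a member differed between the highest and the lowest line by a median of 3.12-fold, least for COX6C (2.06-fold). After division by the array median this was 4.55-fold, least for CYCS (2.13-fold). Which line was highest depended on the scaling. On signals divided by the array median LAN-1 was highest in normoxia for 13 members, and on signals as deposited for 3. Pairs of members correlated over the 11 lines with a median r of 0.324 for their changes and 0.552 for their normoxic levels (465 pairs), values in which each array enters every pair.

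The sign of the median change also differed between lines, and so did that of genes with a mean signal of at least 100. The median log2 change of the 31 members was −0.29 in SK-N-BE2(C), where the median of all genes was −0.11, and −0.25 in GI-LI-N, against −0.07. In SHEP21N without MYCN overexpression it was −0.26, against −0.01. Genes with a mean signal of at least 100 had medians of −0.14 in SK-N-BE2(C), −0.06 in GI-LI-N and −0.005 in SHEP21N without MYCN overexpression. GI-ME-N had 30 of 31 members below 0 with a median of −0.21. This was next to −0.18 over all its genes and −0.23 over those with a mean signal of at least 100. Medians above 0 were found in SHEP-2 (0.09, all genes 0.08), SK-N-SH (0.16, all genes 0.12) and SHEP21N with MYCN overexpression (0.19, all genes −0.02). Genes with a mean signal of at least 100 had 0.09 in SHEP-2, 0.14 in SK-N-SH and 0.04 in SHEP21N with MYCN overexpression. In SHEP21N with MYCN overexpression 10 members were higher by at least 0.5 on the log2 scale, against 0 to 3 in the other lines. Without MYCN overexpression 9 members were lower by at least 0.5, among them UQCRB (−1.35), COX7B (−0.96), COX6C (−0.94) and SDHD (−0.91). The normoxic array of this culture had the second highest ACTB ratio, 5.05. MYCN, tetracycline and the RNA of the normoxic arrays cannot be told apart between the SHEP21N cultures.

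**Figure D5:**
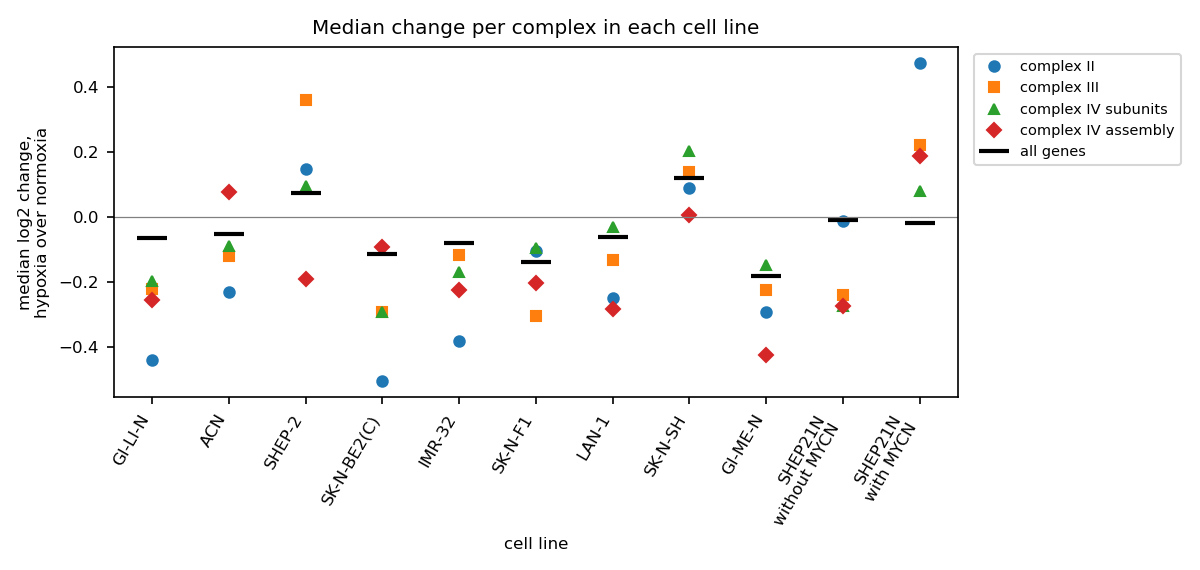
Median log2 change, hypoxia over normoxia, of complex II, complex III, complex IV subunits and complex IV assembly factors in each of 11 cell lines, with the median of all genes as a black bar. Medians lie below 0 for all 4 groups in GI-LI-N, SK-N-BE2(C), IMR-32, SK-N-F1, LAN-1, GI-ME-N and SHEP21N without MYCN overexpression, and at or above 0 for all 4 groups in SK-N-SH and SHEP21N with MYCN overexpression.

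Whether the 3 lines obtained from a laboratory (SHEP-2 and the SHEP21N pair) responded otherwise than the 8 lines bought from a collection was put to an interaction term in limma. No member had an adjusted p under 0.05, and 2 of 19775 genes did (0.0101%). At an unadjusted p under 0.05, 5 members had a higher and 1 a lower change in SHEP lines, where 11.7% of all genes had either. Without SHEP21N with MYCN overexpression these counts were 2 and 0, where 9.18% of all genes had either. Arrays of the SHEP21N pair differed in their lowest signal from those of SHEP-2 and the collection lines, which this comparison cannot separate.

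Genes outside the list were read from lists of neighbouring functions. The shares to set beside their counts are 55.6% of all genes below 0 and 0.162% called. The 18 ATP synthase genes had no called gene, 15 below 0 (83.3%) and a median log2 change of −0.15. ATP5MC1, for the ring subunit c, had the smallest p among them, with a mean log2 change of −0.43 (SE 0.15, adjusted p = 0.334), lower in 9 of 11 lines. Other assembly factors of complexes II and III had 9 of 10 genes below 0 (90%) and none called, led by BCS1L, which inserts the Rieske protein into complex III, at −0.32 (adjusted p = 0.425). Further complex IV subunits and factors had 18 of 23 measured genes below 0 (78.3%), a median of −0.26 and none called. PET117, a complex IV assembly factor, was lower in 11 of 11 lines, with signals of 696, 1265 and 3488 in hypoxia against 854, 1545 and 5704 in normoxia and a log2 change of −0.37 (SE 0.09, adjusted p = 0.187).

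Called genes were found in the list of genes known to respond to hypoxia, mitochondrial but for MXI1. There 4 of 9 measured genes were called as higher, against 0.147% of all genes. PDK1, the kinase that shuts pyruvate dehydrogenase, rose by 2.12 on the log2 scale (SE 0.27, adjusted p = 0.0135), with signals of 3011, 4107 and 8147 in hypoxia against 316, 860 and 3470 in normoxia. FAM162A rose by 2.02 (adjusted p = 0.0128), BNIP3 by 1.88 (adjusted p = 0.0128) and BNIP3L by 1.24 (adjusted p = 0.0437), the last pair being receptors for the removal of mitochondria by autophagy. Of the other 5, none passed. MXI1, an antagonist of MYC, had 0.81 (adjusted p = 0.0924), higher in 11 of 11 lines. HIGD1A at −0.27 (adjusted p = 0.4) and ISCU at −0.20 (adjusted p = 0.48) were each lower in 9 of 11 lines. COX4I2 and LONP1 complete the list, which was drawn up from genes known to respond to hypoxia. The study had selected its hypoxia signature from these same arrays. PDK1, BNIP3, BNIP3L, MXI1 and FAM162A (there E2IG5) belong to it, so their rise here is no independent finding.

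Neither of the other mitochondrial lists held a called gene. Among 12 proteases and chaperones other than LONP1 the smallest p was that of HSPE1, the co-chaperone of HSP60, at −0.35 (SE 0.13, adjusted p = 0.367). Among 12 regulators of mitochondrial biogenesis it was that of TFB2M, a mitochondrial transcription factor, at −0.31 (SE 0.09, adjusted p = 0.247), lower in 10 of 11 lines.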

How the data were processed

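RNA of 11 neuroblastoma cell lines in hypoxia or normoxia had been measured on Affymetrix expression arrays (HG-U133 Plus 2.0), 22 in all. The deposited values are linear MAS5 signal intensities per probeset, which the authors brought to an average of 500 per array; the MAS5 settings are not given in the sources used here. Signals were divided by the median of the array they came from and log2 transformed. Of 54675 probesets, 41091 named 1 gene in GEO's platform annotation, 1801 several and 11783 none or a control, and the brightest single-gene probeset by mean log2 signal stood for each of 19775 genes. Differences were tested with limma 3.58.1 in R 4.3.3, with cell line as a block because both arrays of a number came from the same line, and p-values were adjusted by Benjamini-Hochberg over all genes. The COX4 balance was tested by all 2048 sign patterns. Scripts were tested on simulated data. The number of arrays limits the precision, and with 1 culture per line and condition the p-values measure the spread between lines, which are not all independent. Members and lists were chosen with earlier results of these data known. COX4I1, COX4I2, LONP1 and the 2 members of smallest p per complex were given with signals by rule, and CYCS, SDHC, CYC1, UQCRB, PET117, MXI1, HIGD1A and ISCU after their values were seen; of each other list the rule named called genes and that of smallest p. Alternatives covered scaling, signals raised to at least 50, dropping genes of a mean signal under 100, averaging the probesets of a gene, no block, a paired t-test and lines averaged or left out. Promoters came from RefSeq (GRCh38.p14), and figures were drawn with matplotlib.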

Additional observations from a re-analysis of the deposited data

Results flagged for a closer look

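UQCR10, a small subunit of complex III, had changes of opposite sign in SHEP lines and in collection lines. It was higher in hypoxia in 3 of 3 SHEP lines, with a mean log2 change of 0.30, and lower in 8 of 8 collection lines, with a mean of −0.41. On the signals as deposited GI-ME-N was slightly higher instead. The difference of the effects was 0.70 (SE 0.22, unadjusted p = 0.00791, adjusted p = 0.321 in the limma interaction), so it did not pass the correction over all genes. Without SHEP21N with MYCN overexpression, whose normoxic array had the high 3′ to 5′ ratio, the SHEP mean was 0.19 and the difference 0.59 (SE 0.24, unadjusted p = 0.0364, adjusted p = 0.506). Changes in 1 line of each set were near 0, at 0.01 in SHEP21N without MYCN overexpression and −0.01 in SK-N-SH. UQCR10 was flagged from the 31 members because of this split of signs, and the share of all genes with such a split was not counted. In the limma interaction 11.7% of all genes had an unadjusted p under 0.05, and 9.18% without SHEP21N with MYCN overexpression. The SHEP21N pair is 1 line. The provider and the kinship of the SHEP lines cannot be told apart. Nor can the differing lowest signal of the SHEP21N arrays, which those of SHEP-2 did not share.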

How the results depend on the processing

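The count of members past an adjusted p of 0.05 stayed at 0 on the signals as given, after quantile normalization, with signals raised to at least 50, without genes of a mean signal under 100, with the mean of all probesets, no block, averaged or omitted SHEP lines and the average of IMR-32, SK-N-SH and GI-LI-N, and with each of the 11 lines left out. The exception was the paired t-test, which called 1 (CYCS), with 105 genes called in all. With no block on the cell line, that is without pairing, 0 members and 4 of all genes passed. Counts over all genes were 104 without the dim genes, 79 with signals raised to 50, 35 with quantile normalization, 36 as deposited, 14 with the mean of probesets, 13 without the SHEP21N lines, 8 with SHEP lines averaged, 2 with IMR-32, SK-N-SH and GI-LI-N averaged, and 7 to 28 with 1 line left out, against 32; the cause was not tested. The COX4 balance kept its sign and an exact permutation p of at most 0.0391 in every alternative, from 1.06 to 1.22 with other settings and 0.99 to 1.33 with 1 line left out. Of 309 single-gene values under other settings, 295 kept direction and side of the threshold. With SHEP lines averaged the sign turned for SDHA (−0.079), SDHC (−0.16), UQCRC1 (−0.055) and COX10 (−0.0038). Without both SHEP21N lines it turned for SDHA (−0.093), SDHC (−0.23), UQCRC1 (−0.080), UQCRB (0.043) and COX10 (−0.0069). The mean of all probesets turned SDHC (−0.046), UQCRC2 (0.045) and COX6A1 (0.046), and the average of IMR-32, SK-N-SH and GI-LI-N turned COX10 (−0.013). Leaving out 1 line gave −0.037 to 0.071 for SDHA, −0.21 to 0.057 for SDHC, −0.030 to 0.11 for UQCRC1, −0.12 to 0.051 for UQCRB and −0.021 to 0.057 for COX10. In 17 members with over 1 probeset, 9 of the 35 other probesets had the opposite sign. Signal near background limits COX17 and COX4I2.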
